A study of Ovis aries with 4 samples.

Results

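Transcripts of 6 G protein-coupled receptor genes were followed through the striatum of 5-year-old sheep (Ovis aries): the opioid receptor genes OPRM1, OPRK1 and OPRD1, the cannabinoid receptor gene CNR1 and the muscarinic acetylcholine receptor genes CHRM1 and CHRM4. The genes were taken by their symbols from the 26478 genes counted in the series, and all 6 were found once, under the identifiers ENSOARG00020024943 (OPRM1), ENSOARG00020025297 (OPRK1), ENSOARG00020017834 (OPRD1), ENSOARG00020013412 (CNR1), ENSOARG00020021898 (CHRM1) and ENSOARG00020022796 (CHRM4). The study set whole cells, freed from the tissue with papain, beside nuclei released from frozen tissue, both on the 10x Genomics droplet platform. There were 4 libraries: whole cells replicate 1 and nuclei replicate 1 came from sheep 1 and 2 pooled, and whole cells replicate 2 and nuclei replicate 2 from sheep 3 and 4 pooled, so each value below is of a pool of 2 animals. No treatment or genotype is named for any group.

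The opioid receptors respond to enkephalin, dynorphin and endorphin peptides, and all members of that family couple to inhibitory Gi/o proteins. CNR1 encodes the CB1 receptor, a Gi/o-coupled receptor for lipid messengers that acts mainly at axon terminals. CHRM4 encodes the Gi/o-coupled M4 receptor and CHRM1 the Gq-coupled M1 receptor, both read by acetylcholine from the striatum's own cholinergic interneurons. The main striatal cells are medium spiny neurons, which divide into a direct-pathway type with D1 dopamine receptors and dynorphin and an indirect-pathway type with D2 dopamine receptors and enkephalin. In rodents OPRM1 is a classical marker of the striosome compartment, and M4 receptors are concentrated on direct-pathway neurons.

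The nuclei libraries held 8815 and 8723 barcodes with 70473292 and 51102420 unique molecular identifiers (UMIs, counts of single captured RNA molecules). The whole-cell libraries held 2162 and 32500 barcodes with 1115058 and 19241918 UMIs, of which 88.7% and 86.9% were mitochondrial, against 0.779% and 0.776% in nuclei. No whole-cell barcode had both 200 genes and at most 5% mitochondrial UMIs, so cell classes were made from 16698 nuclei alone. A class is called by the markers raised in it, and 29 barcode sequences occurred in both nuclei libraries. Spiny neuron-like nuclei (2735), raised for RGS9, PDE10A and ADCY5, were those the tissue label calls for. In all 4 unnamed clusters together there were 1061 nuclei.

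Whole cells and nuclei differed in which receptor genes could be read. OPRM1 gave 13827 and 8817 UMIs in nuclei replicates 1 and 2, but 0 and 22 in whole cells. OPRD1 gave 1123 and 1006 UMIs in nuclei and 0 and 1 in whole cells. OPRK1 was at 1409 and 1118 UMIs in nuclei and at 0 and 40 in whole cells. CNR1 was at 465 and 347 in nuclei and at 2 and 19 in whole cells. The muscarinic genes were rare everywhere: CHRM1 had 43 and 17 UMIs in nuclei and 0 and 14 in whole cells, and CHRM4 had 25 and 26 in nuclei and 0 and 9 in whole cells. Whole cells replicate 1 therefore held 2 UMIs of these genes in all, and its 0 counts allow levels of up to 23.8 on the scale used next, above the level of every receptor gene except OPRM1 in the other libraries.

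**Figure D1:**
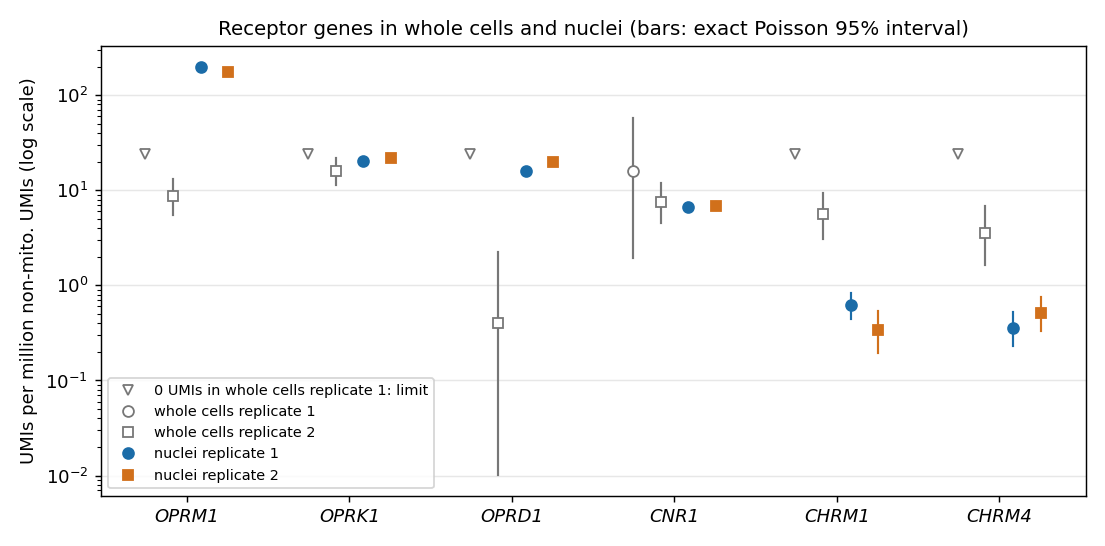
Level of each receptor gene as CPM of non-mitochondrial UMIs (log axis) in the 4 libraries, with exact Poisson 95% intervals and, for 0 counts, the limit that a count of 0 allows (triangles). OPRM1 and OPRD1 sit higher in nuclei (filled) than in whole cells replicate 2 (open squares), CHRM1 and CHRM4 lower, and OPRK1 and CNR1 at a like level.

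In CPM (UMIs scaled to a common library total, here of the non-mitochondrial UMIs), OPRM1 stood at 198 and 174 in nuclei and at 8.76 in whole cells replicate 2. With the libraries of a kind summed, that is 22.5 times the whole-cell level, with a counting interval of 14.9 to 35.9. OPRK1 stood at 20.2 and 22.0 in nuclei and at 15.9 in whole cells replicate 2, and CNR1 at 6.65 and 6.84 against 7.56. CHRM1 went the other way, with 0.615 and 0.335 in nuclei and 5.57 in whole cells replicate 2. With libraries summed that is 10.7 times the level in nuclei (5.50 to 19.3), and within the pool of sheep 3 and 4 it is 16.6 times. CHRM4 was at 0.358 and 0.513 in nuclei and at 3.58 in whole cells replicate 2, and the summed whole-cell level was 8.07 times that in nuclei (3.49 to 16.5).

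In edgeR's quasi-likelihood test over all 15781 genes that passed the low-count filter, 4 of the 6 receptor genes were called, beside 52.2% of all genes tested. With the animal pool as a replicate block, 4 receptor genes and 5471 genes in all were called, in place of 8231. OPRM1 (log2 fold change 4.43 ± 0.60 SE, adjusted p = 3.25e-07) and OPRD1 (5.37 ± 0.97, adjusted p = 2.16e-05) were higher in nuclei, as were 29.8% of all genes. CHRM1 (-3.47 ± 0.82, adjusted p = 6.40e-04) and CHRM4 (-3.06 ± 0.86, adjusted p = 0.00333) were lower in nuclei, as were 22.4% of all genes. OPRK1 (0.44 ± 0.49, adjusted p = 0.457) and CNR1 (-0.46 ± 0.59, adjusted p = 0.523) were not called. Both muscarinic calls rested on whole cells replicate 2: without it CHRM1 had an adjusted p of 0.879 and CHRM4 of 0.887. Whole cells were then 1 library, the nuclei alone gave the spread, and of the receptor genes only CNR1 had a UMI in it. The fit then put OPRD1 at an adjusted p of 0.0556 and OPRK1 at 0.0333, but the limit of 23.8 CPM lies above the levels of both in nuclei, so those counts show no difference for either. Both muscarinic calls were also lost with barcodes of at least 200 genes (0.376 and 0.342). The median gene was itself 0.61 higher in nuclei on the log2 scale, or 3.66 with library size alone. On that scaling 96.2% of the called genes were higher in nuclei, against 57.0% in the main fit, CNR1 reversed to 2.61 and CHRM4 to 0.055, both below that median, and CHRM1 was at -0.39. OPRK1 (3.54, adjusted p = 2.81e-05) and CNR1 (adjusted p = 0.00129) were then called higher in nuclei and both muscarinic calls were lost. With DESeq2 no receptor gene was called lower either, with CHRM1 at an adjusted p of 0.0837 and CHRM4 given none. The Cell Ranger version also differed between whole cells and nuclei, and its part cannot be told apart from that of the preparation. Fewer cells of a type and less RNA per cell cannot be told apart in sums over a whole library.

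Within nuclei, all of the opioid receptor genes and CNR1 were neuronal, and OPRM1 was also high in microglia. Levels below are CPM of all UMIs of the class, for replicates 1 and 2 in that order, and are compared within a gene, since they are not per length. The interneuron-like class also holds eccentric spiny-like and excitatory neuron-like nuclei, described below. The classes were built from the other genes of the same nuclei, with the 6 receptor genes kept out. Their p-values measure the spread between 2 libraries, while the classes were made to differ.

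OPRK1, the dynorphin receptor gene, stood at 29.3 and 33.3 CPM in spiny neuron-like nuclei and at 17.7 and 23.2 in interneuron-like nuclei. In glia it was between 0.313 and 2.25 CPM. The ranges of both neuron classes and of glia did not overlap, though PTHLH and PVALB interneuron-like nuclei, described below, stood at 1.44 and 0.880 CPM. In replicate 1 the UMIs were 1231 in spiny neuron-like nuclei against 12 in the 3832 oligodendrocyte-like nuclei. Against the mean of the 4 glial classes the log2 fold change was 5.48 ± 0.19 (SE, edgeR adjusted p = 7.32e-09).

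OPRD1, whose product is the delta receptor for enkephalin, stood at 22.4 and 29.8 CPM in spiny neuron-like nuclei, at 13.5 and 17.4 in interneuron-like nuclei and at 1.56 to 5.47 in glia. The interneuron-like level was not that of interneurons alone. Eccentric spiny-like nuclei stood at 22.8 and 22.7 CPM and excitatory neuron-like nuclei at 21.6 and 31.3. SST interneuron-like nuclei stood at 0 and 1.76 and PTHLH and PVALB interneuron-like nuclei at 6.47 and 3.52. OPRD1 was 3.58 ± 0.15 higher on the log2 scale in spiny neurons than in glia (edgeR adjusted p = 2.83e-08). CNR1 stood at 8.97 and 8.92 CPM in spiny neuron-like nuclei and at 6.54 and 8.85 in interneuron-like nuclei, and its glial values ran from 0.625 to 2.15. Its log2 fold change against glia was 3.05 ± 0.27 (edgeR adjusted p = 4.47e-06).

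OPRM1, the mu receptor gene, differed among glial classes. Its level was 267 and 208 CPM in spiny neuron-like nuclei, 156 and 123 in interneuron-like nuclei, 62.9 and 17.9 in astrocyte-like nuclei, 13.7 and 9.0 in oligodendrocyte-like nuclei and 8.13 and 8.04 in their precursors. The interneuron-like level joins eccentric spiny-like nuclei, at 289 and 260 CPM, to interneurons of lower level. SST interneuron-like nuclei stood at 93.4 and 123 and PTHLH and PVALB interneuron-like nuclei at 48.9 and 49.3. In microglia-like nuclei OPRM1 was at 378 and 638 CPM, above every other named class in both libraries. The log2 fold change of spiny neurons against the mean of glia was 3.09 ± 0.28 (edgeR adjusted p = 5.77e-06), a mean that joins 3 classes of low level to 1 of high level.

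The muscarinic genes were too sparse for the low-count filter in the class sums and were described by counts. CHRM1 gave 32 and 14 UMIs in spiny neuron-like nuclei (0.762 and 0.503 CPM), 4 and 2 in interneuron-like nuclei, and 4 and 1 over all glial classes. CHRM4 gave 21 and 21 UMIs in spiny neuron-like nuclei (0.50 and 0.755 CPM), 1 and 4 in interneuron-like nuclei, and 1 and 1 in glia. Spiny neuron-like nuclei, 16.2% and 16.6% of the nuclei, with 63.4% and 54.8% of all UMIs, held 78.0% and 82.4% of CHRM1 UMIs and 91.3% and 80.8% of CHRM4 UMIs.

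**Figure D2:**
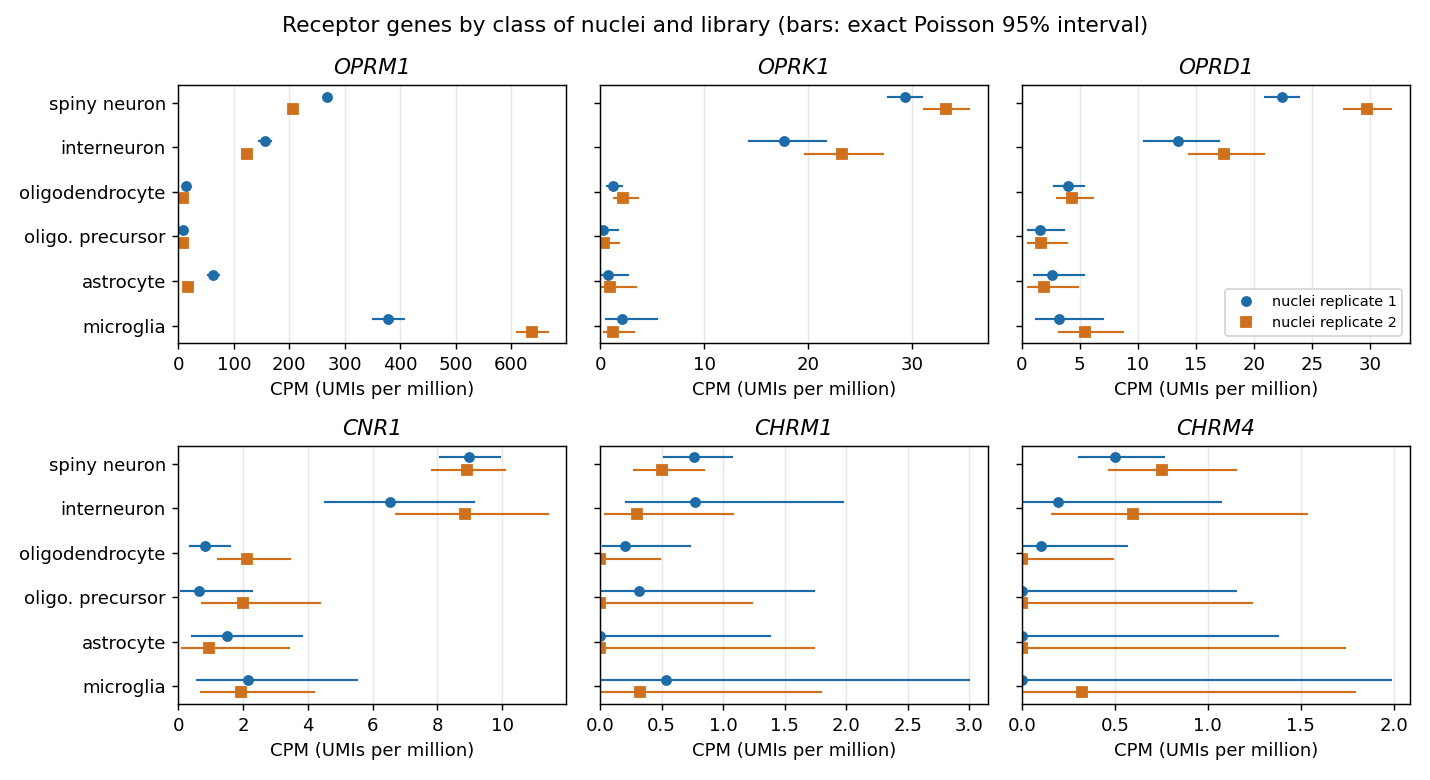
CPM of the 6 receptor genes in each named class of nuclei, 1 point per library with its exact Poisson 95% interval; each panel has its own linear axis. OPRK1, OPRD1 and CNR1 are higher in both neuron classes than in glia, and OPRM1 is highest in microglia, at 378 and 638 CPM. The interneuron class also holds eccentric spiny-like and excitatory neuron-like nuclei.

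All 4 receptor genes that passed the filter were called higher in spiny neurons than in glia, beside 33.5% of the 13540 genes tested (64.4% were called in either direction). With no filter on low counts CHRM1 (log2 fold change 3.03 ± 0.83, edgeR adjusted p = 0.00379) and CHRM4 (4.31 ± 1.03, adjusted p = 0.00110) were called too. Against interneurons 2 of the 4 were called, beside 22.7% of all genes: OPRK1 (log2 fold change 0.82 ± 0.18 SE, edgeR adjusted p = 0.00951) and OPRD1 (0.95 ± 0.18, adjusted p = 0.00377) were higher in spiny neurons, as were 11.5% of all genes. OPRM1 (0.97 ± 0.39, adjusted p = 0.104) and CNR1 (0.44 ± 0.30, adjusted p = 0.333) were not. The interneuron-like class holds the eccentric spiny and excitatory nuclei described below. With only nuclei of the named interneuron subclasses in it, a choice made after seeing the data, OPRM1 was called (1.98, adjusted p = 0.00709) and CNR1 turned to -0.40 (adjusted p = 0.361). OPRM1 was called in 5 of 10 alternatives, at 1.03 to 2.37. With those subclasses only OPRK1 was at 2.29 and OPRD1 at 2.85, and at the other cluster resolution at 1.70 and 3.35, all called.

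Depth differed between classes, with medians of 28980.5 and 16509 UMIs per spiny neuron-like nucleus and 1732 and 1598 per microglia-like nucleus. After each nucleus was thinned to 1000 UMIs, 22.6% and 17.5% of spiny neuron-like nuclei had an OPRM1 UMI, against 87.3% and 77.1% before thinning. Of microglia-like nuclei 33.5% and 53.0% had one after thinning (49.8% and 69.7% before), and of oligodendrocyte-like nuclei, taken as the background, 1.45% and 0.937%. At that depth OPRK1 was seen in 3.50% and 2.98% of spiny neuron-like nuclei and in 0.137% and 0.242% of oligodendrocyte-like nuclei. OPRD1 was seen in 2.72% and 2.38% against 0.355% and 0.454%, and CNR1 in 1.40% and 0.894% against 0.0546% and 0.242%. Thinned, CHRM1 and CHRM4 were in under 0.16% of spiny neuron-like nuclei and cannot be ranked.

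The microglial OPRM1 signal was followed further after it was seen. Microglia-like nuclei, raised for CSF1R, C1QA, CX3CR1 and P2RY12, held 5.3% of OPRM1 UMIs of the clustered nuclei in replicate 1 and 22.7% in replicate 2. OPRM1 was 4.82 ± 0.32 higher on the log2 scale in microglia than in the other 3 glial classes (edgeR adjusted p = 1.95e-06), where 20.3% of genes were higher and 17.6% lower. The difference between spiny neurons and microglia was not called (-0.53 ± 0.39, adjusted p = 0.261), in a contrast that called 62.3% of genes. OPRM1 was called higher in spiny neurons than in astrocytes (3.11 ± 0.44, adjusted p = 1.92e-04; 53.5% of genes called, 27% higher) and than in oligodendrocytes and their precursors (4.89 ± 0.37, adjusted p = 1.75e-06; 60% called, 32.5% higher). The difference from microglia was negative in all 10 alternatives and called in 4 of them, with adjusted p-values from 0.0130 to 0.445. Of the 2 microglia-like clusters, the larger (743 and 740 nuclei) stood at 475 and 1203 CPM. The smaller (98 and 274 nuclei), in which 7 oligodendrocyte markers were also raised, stood at 152 and 329. Nuclei with 3 lymphocyte markers, only 8 and 6, had 10 and 11 OPRM1 UMIs (593 and 1422 CPM of non-mitochondrial UMIs). Nuclei with 3 microglial markers were at 434 and 820 on that scale, with overlapping Poisson intervals. Within the microglia-like clusters the signal was present in both, and at a lower level in the cluster with oligodendrocyte transcripts.

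Neuron markers were present in all glial classes. The 6 measured neuron markers summed to 584 and 1019 CPM in microglia-like nuclei, 561 and 866 in astrocyte-like nuclei, 667 and 947 in oligodendrocyte precursor-like nuclei, 1988 and 2148 in oligodendrocyte-like nuclei and 13625 and 13332 in spiny neuron-like nuclei. For each OPRK1 UMI there were 9.12 and 6.24 OPRM1 UMIs in spiny neuron-like nuclei, but 176 and 496 in microglia-like nuclei, where OPRK1 gave 4 UMIs in each library. The part of neuronal RNA in the microglial level was not tested.

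A neighbouring gene was high there too. IPCEF1, which follows OPRM1 in the files' gene order and in RefSeq's gene table of assembly ARS-UI_Ramb_v3.0, stood at 617 and 414 CPM in microglia-like nuclei. It was at 0.938 to 2.54 in oligodendrocyte-like nuclei and their precursors, at 32.2 and 7.56 in astrocyte-like nuclei, where OPRM1 was at 62.9 and 17.9, and at 37.4 and 28.7 in spiny neuron-like nuclei. RGS17, on the other side of OPRM1, stood at 5.39 and 4.18 CPM in microglia-like nuclei and at 66.3 and 78.2 in spiny neuron-like nuclei. In microglia IPCEF1 was higher in replicate 1 than in replicate 2, whereas OPRM1 was lower, so the ratio of the genes was not constant. The genes were often seen in the same nuclei. IPCEF1 was in 72.3% and 67.0% of microglia-like nuclei with OPRM1 and in 56.4% and 44.0% of those without, at unequal depth. Whether reads of 1 gene were counted to the other was not tested. Whole-cell barcodes offered no check, since by the same marker rule (3 markers of a type) none of them was microglial.

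**Figure D3:**
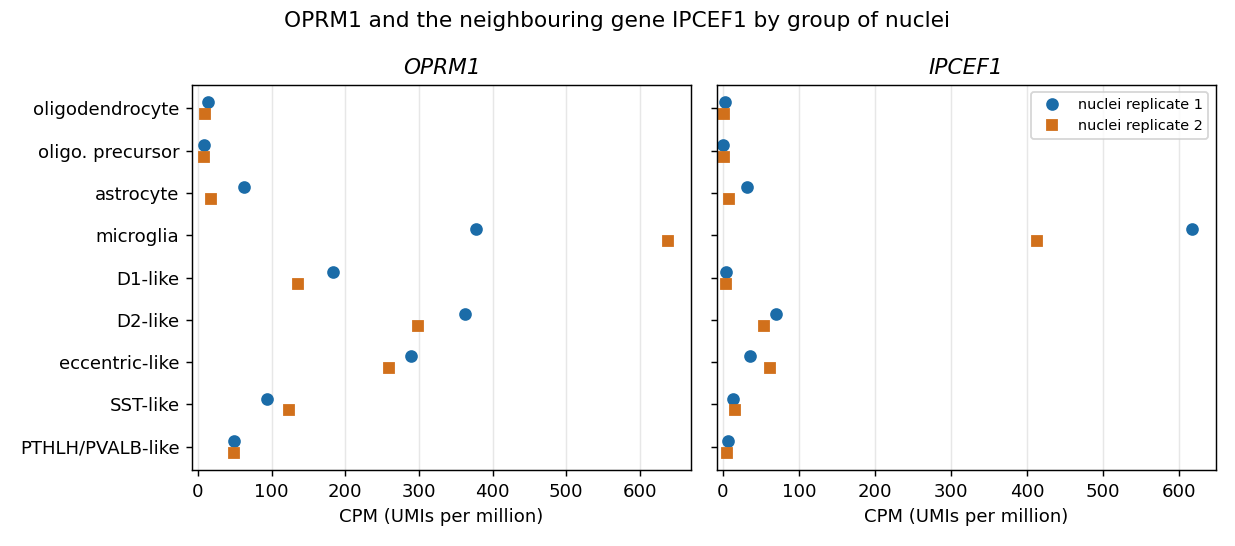
CPM of OPRM1 and of its neighbour IPCEF1 in glial classes and neuron subclasses, 1 point per nuclei library, linear axes. Both genes are high in microglia and higher in D2-like than in D1-like nuclei, while D1-like nuclei have OPRM1 at 183 and 135 CPM with IPCEF1 near 4.

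The spiny neurons themselves differed in their opioid receptor genes. D1-like nuclei (207 and 393, raised for TAC1, EBF1 and SLC35D3) and D2-like nuclei (476 and 502, raised for DRD2 and ADORA2A, with PENK in part of them) were split from the rest by clustering the neuron-like nuclei. PENK and PDYN were among the naming markers, so their levels only describe the split. PENK was at 45.2 and 45.2 CPM in D2-like and 3.62 and 2.37 in D1-like nuclei, and PDYN at 2.93 and 6.33 in D1-like and 0.0627 and 0.639 in D2-like nuclei. Another 6 spiny subclusters took no name, and 2 of them were led by oligodendrocyte genes (OPALIN, MOBP) or astrocyte genes (GFAP, SLC1A3, SLC1A2).

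OPRD1 showed the sharpest division. It stood at 39.7 and 60.4 CPM in D2-like nuclei and at 2.76 and 3.95 in D1-like nuclei, with 633 and 662 UMIs against 16 and 25. The ranges were far apart, and the D1-like values lay near those of oligodendrocyte-like nuclei (3.96 and 4.37 CPM). The log2 fold change of D1-like against D2-like was -3.99 ± 0.22 (SE, edgeR adjusted p = 5.94e-09). An unnamed spiny subcluster led by FOXP2 and EBF1, the second a D1 marker, was also low, at 3.73 and 3.37 CPM.

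OPRM1 was higher in D2-like nuclei by a smaller factor. It stood at 362 and 299 CPM in D2-like and at 183 and 135 in D1-like nuclei, a log2 fold change of -1.18 ± 0.14 (edgeR adjusted p = 7.26e-05). Replicate 1 was higher than replicate 2 in both types, and the types did not overlap. Without the library as a replicate block, OPRM1 kept its fold change of -1.17 but had an adjusted p of 0.0917. IPCEF1 divided the same way, at 70.3 and 53.6 CPM in D2-like and 3.62 and 4.27 in D1-like nuclei (-4.09 ± 0.25, adjusted p = 1.39e-08), and its part in the OPRM1 difference was not tested. IPCEF1 was in 67.4% and 51.1% of D2-like nuclei with OPRM1 and in 25% and 2% of those without. In D1-like nuclei these shares were 3.72% and 7.74% against 0% and 0%. Depth was not made equal for these shares.

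OPRK1 and CNR1 were near level. OPRK1 stood at 36.0 and 39.2 CPM in D1-like and 29.7 and 33.9 in D2-like nuclei (log2 fold change 0.12 ± 0.13, edgeR adjusted p = 0.628), higher in D1-like nuclei of both libraries. CNR1 stood at 10.0 and 11.2 in D1-like and 8.03 and 9.30 in D2-like nuclei (0.17 ± 0.20, adjusted p = 0.649). Thus 2 of 4 receptor genes tested were called in this contrast, both lower in D1-like nuclei, beside 4.13% of the 10809 genes tested in either direction, 1.63% lower and 2.5% higher.

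CHRM4 had more UMIs in D1-like than in D2-like nuclei. There were 10 and 12 UMIs in D1-like nuclei (1.72 and 1.90 CPM, exact Poisson intervals 0.827 to 3.17 and 0.980 to 3.31) and 5 and 2 in D2-like nuclei (0.314 and 0.182, intervals 0.102 to 0.732 and 0.0221 to 0.659). Intervals here and below cover counting error only. The gene did not pass the filter. With no filter on low counts its log2 fold change was 2.56 ± 0.74 (adjusted p = 0.0199). CHRM1 gave 6 and 6 UMIs in D1-like nuclei (1.03 and 0.949 CPM) and 11 and 5 in D2-like nuclei (0.690 and 0.456), with overlapping intervals and an adjusted p of 0.831 without the filter.

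**Figure D4:**
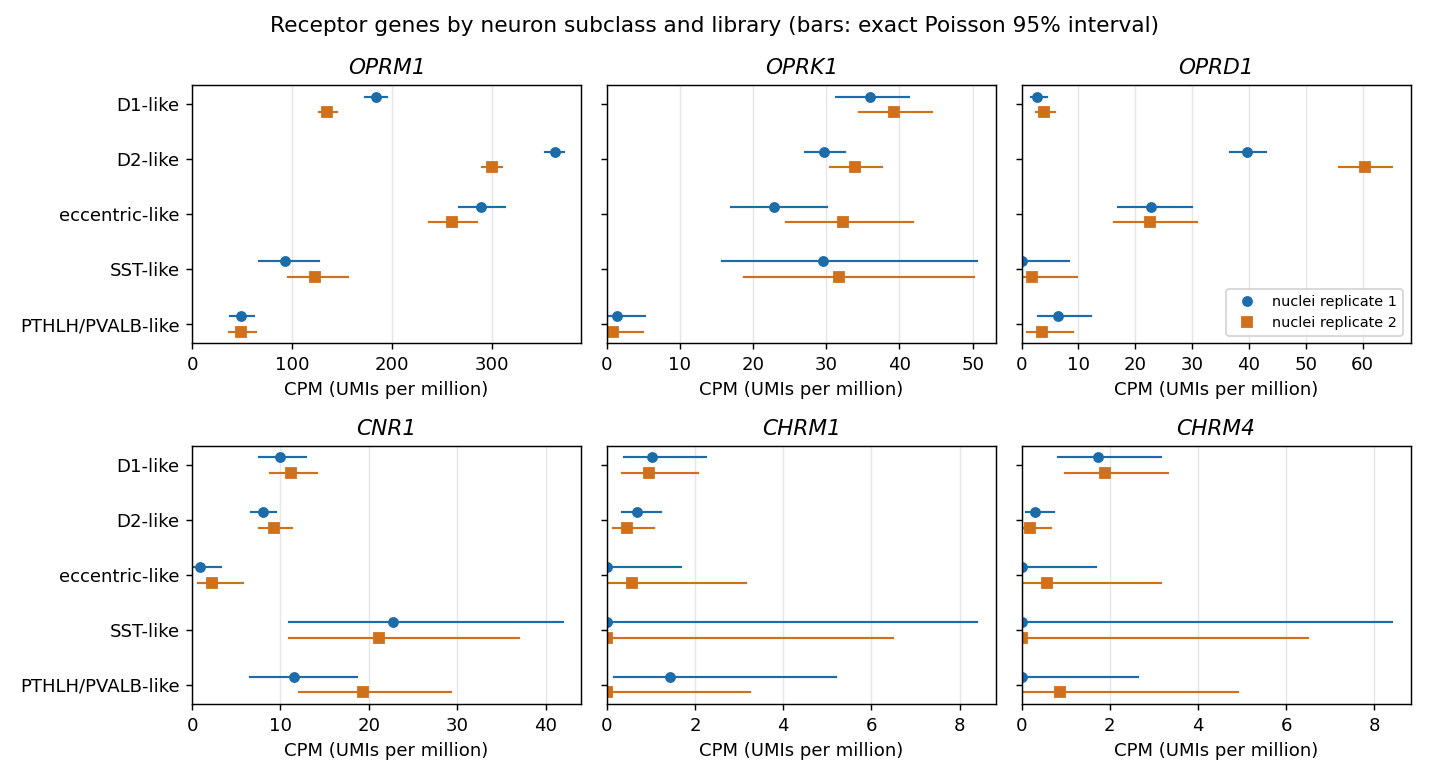
CPM of the 6 receptor genes in 5 neuron subclasses, 1 point per nuclei library with its exact Poisson 95% interval; each panel has its own linear axis. OPRD1 is high in D2-like nuclei, at 39.7 and 60.4 CPM, and low in D1-like nuclei; OPRK1 is near 1 CPM in PTHLH/PVALB-like nuclei alone.

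Nuclei of the spiny neuron-like class were also grouped by their D1 and D2 markers, without the subclusters. The same marker lists named the D1-like and D2-like subclasses, so the 2 groupings are not independent. Spiny nuclei with UMIs of D1 markers only (321 and 353) had OPRD1 at 4.62 and 3.89 CPM and those with UMIs of D2 markers only (23 and 36, of low depth) at 22.9 and 35.7. Most spiny nuclei (939 and 933) had both, so the requirement of at least 2 markers of a type split more of them. Under it OPRD1 was at 4.2 and 3.74 CPM in D1-only and 42.4 and 62.2 in D2-only nuclei, and OPRM1 at 176 and 131 against 359 and 317. CHRM4 then had 16 and 19 UMIs in D1-only nuclei (0.896 and 1.42 CPM) and 0 and 0 in D2-only nuclei, which allows up to 0.259 and 0.423 CPM. With at least 2-fold more UMIs of 1 marker list, a rule added after seeing the data, OPRD1 was at 8.69 and 7.11 CPM where D1 markers were ahead and at 43.2 and 60.2 where D2 markers were. OPRM1 was then at 211 and 133 against 254 and 295, closer in replicate 1, and at 369 and 309 in nuclei with neither ahead. The order of OPRK1 and CNR1 differed with the rule. With at least 2 markers OPRK1 was at 28.5 and 37.0 CPM in D1-only against 30.3 and 32.0 in D2-only nuclei, and CNR1 at 8.85 and 9.57 against 9.25 and 8.46, neither with an order shared by both libraries. With 2-fold more UMIs OPRK1 was higher with D1 markers ahead in both (29.0 and 36.0 against 25.4 and 31.9), and CNR1 again had no shared order. With any marker CNR1 was higher in D2-only nuclei in both (15.3 and 13.4 against 9.36 and 9.91), but from 2 and 3 UMIs. With at least 2 markers CHRM1 was at 0.840 and 0.598 against 0.605 and 0.564 CPM.

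Eccentric spiny-like nuclei (70 and 85, raised for OTOF, TSHZ1 and ALK), a further kind of spiny neuron described in rodents, combined the receptor genes differently. CNR1 was nearly missing from them, with 2 and 4 UMIs (0.912 and 2.27 CPM). It was lower than in D1-like nuclei (log2 fold change -2.66 ± 0.45, edgeR adjusted p = 2.32e-04) and than in D2-like nuclei (-2.49 ± 0.45, adjusted p = 4.31e-04). OPRD1 was at 22.8 and 22.7 CPM, between both other types: its log2 fold change was 2.89 ± 0.29 against D1-like (adjusted p = 8.27e-07) and -1.11 ± 0.20 against D2-like nuclei (adjusted p = 4.30e-04). OPRM1, at 289 and 260.1 CPM, was above D1-like nuclei (0.90 ± 0.15, adjusted p = 1.46e-04), and its difference from D2-like nuclei was not called (-0.27 ± 0.14, adjusted p = 0.188). OPRK1, at 22.8 and 32.3 CPM, was called against neither (adjusted p = 0.138 and 0.379). Here 3 of 4 receptor genes were called against D1-like nuclei and 2 of 4 against D2-like nuclei, beside 32.4% and 23.6% of all genes.

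Interneurons parted on OPRK1. SST interneuron-like nuclei (22 and 30, raised for SST, NPY, NOS1 and CHODL) had it at 29.6 and 31.7 CPM, the level of spiny neurons. PTHLH and PVALB interneuron-like nuclei (77 and 83) had it at 1.44 and 0.880 CPM, from 2 and 1 UMIs. The log2 fold change between these interneurons was 4.90 ± 0.55 (edgeR adjusted p = 3.02e-06; 20.2% of genes were called, 10.8% higher and 9.38% lower in SST interneuron-like nuclei). Over 9 alternatives it ran from 1.97, at the other cluster resolution, to 6.42, with at least 500 genes, and stayed called. PTHLH and PVALB interneuron-like nuclei also had the lowest OPRM1 of the named subclasses tested, at 48.9 and 49.3 CPM, -2.50 ± 0.17 against the mean of D1-like and D2-like nuclei (adjusted p = 1.79e-09), where 52% of genes were called. SST interneuron-like nuclei had OPRM1 at 93.4 and 123 CPM (-1.06 ± 0.18, adjusted p = 1.71e-04), where 33.9% of genes were called.

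Of the named subclasses CNR1 was highest in SST interneuron-like nuclei, at 22.8 and 21.2 CPM from 10 and 12 UMIs, 1.16 ± 0.35 above the mean of D1-like and D2-like nuclei on the log2 scale (edgeR adjusted p = 0.0164). In PTHLH and PVALB interneuron-like nuclei it was at 11.5 and 19.4 CPM and not called (0.39 ± 0.26, adjusted p = 0.237), though it was called with library size alone (0.66, adjusted p = 0.0458). OPRD1 was nearly missing from SST interneuron-like nuclei, with 0 and 1 UMIs, and stood at 6.47 and 3.52 CPM in PTHLH and PVALB interneuron-like nuclei. Cholinergic interneuron-like nuclei, only 14 and 13, had OPRM1 at 54.7 and 161 CPM, OPRK1 at 1 and 0 UMIs, CNR1 at 0 and 4 and CHRM4 at 0 and 1, and were not tested. Excitatory neuron-like nuclei (10 and 48) had OPRD1 at 21.6 and 31.3 CPM and OPRM1 at 56.3 and 43.2.

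For 3 of the genes the 5 subclasses with at least 20 nuclei in each library were put in order. For OPRM1 it ran D2-like, eccentric spiny-like, D1-like, SST interneuron-like, PTHLH and PVALB interneuron-like, in both libraries. The difference of the first pair was not called, and D1-like against SST interneuron-like nuclei was not tested, with 135 and 123 CPM in replicate 2. SST interneuron-like nuclei were above PTHLH and PVALB interneuron-like nuclei (1.44 ± 0.24, edgeR adjusted p = 2.61e-04). That call was lost in 1 of 9 alternatives, with the receptor genes allowed among the variable genes (0.71, adjusted p = 0.0752). In that setting 1 receptor gene was among the variable genes of the classes and 0 among those of the neuron subclasses. For OPRD1 it ran D2-like and eccentric spiny-like in both libraries, with SST interneuron-like nuclei last. PTHLH and PVALB interneuron-like nuclei were above D1-like nuclei in replicate 1 and below them in replicate 2, and the Poisson intervals of these 3 subclasses overlapped. For OPRK1 the first 4 subclasses lay within 22.8 to 39.2 CPM, and PTHLH and PVALB interneuron-like nuclei below them.

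Single nuclei were compared at equal depth, by drawing 10000 UMIs from each nucleus that had them. In D2-like nuclei (454 and 402 used) 91.6% and 86.6% had an OPRM1 UMI, with a median of 3 in both libraries and a highest value of 14 and 15. In D1-like nuclei (199 and 329 used) 75.9% and 64.1% had one, with medians of 2 and 1. The distributions overlapped broadly, and 11 and 17 D1-like nuclei had 5 or more. The 10% of D1-like nuclei with most OPRM1 UMIs held 32.9% and 36.3% of them, against 25.8% and 28.2% in D2-like nuclei. In PTHLH and PVALB interneuron-like nuclei 18.2% and 13.0% had a UMI, and the top 10% held 86.5% and 95.5% of all.

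**Figure D5:**
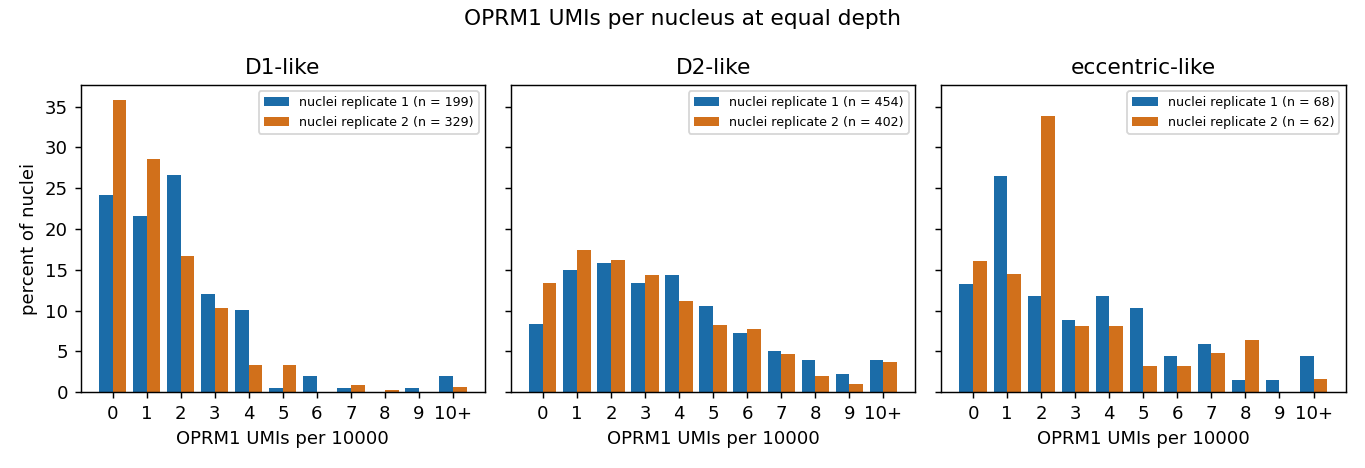
Percent of nuclei (bars, by library) with each number of OPRM1 UMIs after 10000 UMIs were drawn per nucleus, in D1-like, D2-like and eccentric spiny-like nuclei; the last bin is 10 or more. The median is 3 in D2-like nuclei of both libraries and 2 and 1 in D1-like nuclei.

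Detection of the receptor genes in the same nuclei was counted at the same depth. At 10000 UMIs, OPRD1 was seen in 29.8% and 41.7% of D2-like nuclei with OPRM1 and in 44.7% and 27.8% of the 38 and 54 nuclei without it, the libraries going opposite ways. Of D2-like nuclei with OPRK1, 29.4% and 40.0% had OPRD1, against 31.6% and 39.7% of those without OPRK1. In D1-like nuclei OPRK1 was seen in 31.8% and 28.9% of those with OPRM1 and in 22.9% and 33.9% of those without.

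Genes listed for striosomes and for the surrounding matrix were set against OPRM1 within each type, as a description. D1-like nuclei with at least 2 OPRM1 UMIs at 10000 UMIs (108 and 117) were compared with those that had none (48 and 118). BACH2 was higher by 1.03 and 0.68 and KCNIP1 by 0.77 and 0.57 on the log2(CPM + 1) scale, where the 95th percentile of all genes with 50 UMIs was 0.54 and 0.45. KREMEN1 was higher by 0.64 and 0.43, but from 17 and 23 UMIs against 4 and 18, fewer than the 50 UMIs behind the percentiles. The other 5 of the 8 striosome genes had opposite signs in the nuclei libraries, such as STXBP6 at 1.39 and -0.80, from 18 and 15 UMIs against 2 and 30. In D2-like nuclei (348 and 278 against 38 and 54) no striosome gene passed the 95th percentile of 0.67 and 0.61 in both libraries. BACH2 was there at 1.71 and 0.16, KCNIP1 at 1.10 and 0.35, NNAT at 0.66 and 1.54, STXBP6 at 0.35 and 0.92 and KHDRBS3 at 0.92 and 0.18, while KREMEN1, SEMA5B and LYPD1 had opposite signs. Of the 7 matrix genes in D1-like nuclei, CRYM was at -0.31 and -0.42, EPHA4 at -0.15 and -0.11, and CALB1 at 0.30 and 0.33. GDA, SV2B and RASGRP2 had opposite signs there, and ID4 had no UMI in replicate 2. In D2-like nuclei RASGRP2 was at -0.82 and -1.26, below the 5th percentile of -0.56 and -0.43 in both libraries. GDA was at -0.27 and -0.24, SV2B at -0.10 and -0.11 and CALB1 at 0.11 and 0.39, EPHA4 and CRYM had opposite signs, and ID4 again had no UMI in replicate 2.

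Over 22 points, the sums of 11 subclasses and glial classes in each library, the genes with a pattern most like each receptor were named from 11531 candidates. For OPRM1 these were HAVCR2 (Pearson r 0.87), C2CD2L (0.84) and NMNAT3 (0.83). For OPRK1 they were SKAP1 (0.93), AP1S3 (0.92) and CACNA1I (0.90), for OPRD1 KCNIP4, C18orf25 and RASGRP1 (0.76, 0.76 and 0.75), and for CNR1 C4orf45, CALM2 and AP2B1 (0.90, 0.89 and 0.89). The points of a library share its depth, so these values only describe the ranking.

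Genes of the receptors' ligands and signalling partners were then described from lists. Relative to the scaling of the main fit, the opioid peptide genes were lower in nuclei than in whole cells: PENK (log2 fold change -2.97 ± 0.50, edgeR adjusted p = 7.60e-06), PDYN (-3.48 ± 0.64, adjusted p = 3.29e-05) and POMC (-2.78 ± 0.82, adjusted p = 0.00492) passed the test. With library size alone PENK was at 0.038, PDYN at -0.28 and POMC at 0.32, none of them called and all below the median gene. Their counts in whole cells were 456, 42 and 12 UMIs in replicate 2 and 6, 0 and 0 in replicate 1. Of the 11 genes of opioid ligands and their processing, 3 were higher and 3 lower in nuclei, near the 29.8% and 22.4% of all genes, with a median log2 fold change of -0.48 where all genes had 0.61. Beside the same shares, the muscarinic and cholinergic list had 1 higher and 3 lower of 7 tested, with CHRM5 (-3.02 ± 0.84, adjusted p = 0.00303) and CHRM3 (-2.79 ± 0.90, adjusted p = 0.00973) lower, both near 0 with library size alone (0.081 and 0.32). The endocannabinoid list had 6 of 11 higher and none lower, with a median of 1.13. CNR2, the second cannabinoid receptor gene, had no UMI in any library.

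Among classes, the enkephalin gene PENK was higher in spiny neurons than in glia (2.13 ± 0.13, edgeR adjusted p = 3.20e-07) and than in interneurons (2.66 ± 0.20, adjusted p = 1.69e-05). The cholinergic genes CHAT (-4.61 ± 0.38, adjusted p = 2.80e-05), which makes acetylcholine, and SLC5A7 (-6.08 ± 0.34, adjusted p = 4.14e-06), which takes up choline, were lower in spiny neurons than in interneurons, and also than in glia (-2.91 ± 0.34, adjusted p = 3.53e-05, and -2.15 ± 0.38, adjusted p = 5.99e-04). CHAT and SLC5A7 were among the markers used to name the interneuron-like class, so their difference from it only describes the naming. Of 43 G proteins, effectors and regulators tested, 24 were higher and 11 lower in spiny neurons than in glia, beside 33.5% and 30.9% of all genes, with a median of 0.96 beside -0.02 for all genes. The list shares PPP1R1B, RGS9, PDE10A, ADCY5 and GNAL with the markers used to name spiny neurons. The counts and the median are therefore partly set by the naming. RGS14 (5.89 ± 0.20, adjusted p = 6.48e-09), a regulator of Gi/o signals, and PDE1B (5.07 ± 0.12, adjusted p = 1.32e-09), a cyclic nucleotide phosphodiesterase, were among the 4 largest changes, with the peptide-processing protease gene PCSK2 and the synaptic vesicle gene SV2B.

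Between D1-like and D2-like nuclei none of 10 endocannabinoid genes was called. Of 40 G proteins, effectors and regulators, 4 were higher and 3 lower in D1-like nuclei, beside 2.5% and 1.63% of all genes. BCHE, which breaks down choline esters, was higher in D1-like nuclei (1.41 ± 0.21, edgeR adjusted p = 9.23e-04). BACH2 (-1.08 ± 0.17, adjusted p = 0.00149) and STXBP6 (-1.20 ± 0.23, adjusted p = 0.00654) of the striosome list and RASGRP2 (-1.06 ± 0.24, adjusted p = 0.0209) of the matrix list were lower. Eccentric spiny-like nuclei differed more: KCNJ6, the gene of a potassium channel opened by Gi/o-coupled receptors, was 3.62 ± 0.22 above D1-like and 4.59 ± 0.21 above D2-like nuclei (adjusted p = 1.31e-09 and 5.03e-11), ADCY2, an adenylyl cyclase gene, was at 5.90 ± 0.24 and 6.17 ± 0.22, and RGS6, a regulator gene, at -6.37 ± 0.36 and -5.67 ± 0.36. Of the 8 striosome genes, 5 were higher and 1 lower than in D1-like nuclei, beside 16.4% and 16% of all genes. The other muscarinic and nociceptin receptor genes were sparse, with CHRM2 at 7 and 3 UMIs in PTHLH and PVALB interneuron-like nuclei and 1 and 1 in all spiny neuron-like nuclei, and OPRL1 at 27 and 31 UMIs in the latter.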

How the data were processed

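The deposited matrices held UMI counts per gene and barcode that the authors made with Cell Ranger, version 6.0.1 for whole cells and 7.0.0 for nuclei per the file headers. The submitters' processing notes also name Cell Ranger 2.1.1 and STAR 2.7.2a. The genome build, annotation and counting of introns are not given in the sources used here. These Cell Ranger versions differ in whether introns are counted by default, so software version and preparation cannot be told apart between nuclei and whole cells. The titles' animal pools were followed where the protocol names others for the second cell suspension.

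Barcodes of nuclei were kept from 200 detected genes upward if mitochondrial genes (35 in the files) made up no more than 5% of their UMIs. Scrublet in scanpy 1.11.5 called 390 doublets (4.48%) in nuclei replicate 1 and 0 in replicate 2, so it did not work there. Clusters were made from 2000 variable genes without the 6 receptor genes, 30 components and Leiden resolution 0.5 (1.0 for neuron subclasses). They were named where at least 3 markers were raised 2-fold (1.5-fold among spiny nuclei), thresholds set after the data were seen.

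Counts were summed per library, or per class and nuclei library, and tested with edgeR 4.0.16 (TMM, filterByExpr, quasi-likelihood, Benjamini-Hochberg adjustment over all genes, threshold 0.05), all classes of at least 20 nuclei in each library sharing 1 fit with the library as a term. The SE is the log2 fold change divided by the root of the F statistic. DESeq2 1.42.0 was an alternative. The fits were also run on simulated counts with known changes, whose outcome is not given here. Pools are shared by nuclei and whole cells by their titles; deviations of libraries of 1 pool correlated at -0.02 over genes. Limits of a 0 rest on 3 counts. Named genes were the 6 receptors, fixed ligand, receptor and cholinergic genes and per contrast the 4 further list genes with the largest called change. The receptors and lists were chosen with earlier results of these data known. Contrasts between single classes and subclasses other than D1-like against D2-like, the OPRM1 neighbours and the single-nucleus descriptions at 10000 UMIs were added after seeing the data. No sequences or coordinates are printed, since no sequence of the files' build was used here.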

Additional observations from a re-analysis of the deposited data

How the results depend on the processing

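Between nuclei and whole cells 4 receptor genes were called, but 2 with DESeq2 and 2 with barcodes of at least 200 genes. Leaving out 1 library gave 2 to 4, and the 2 without whole cells replicate 2 were OPRM1 and OPRK1, so only OPRM1 of the original 4 was still called. The lone library of a kind is then assumed to vary like the other kind. With the animal pool as a replicate block each receptor gene kept its call or lack of one. CNR1 reversed to 2.61 and CHRM4 to 0.055 on library size alone. Leaving out 1 library put CHRM1 at -4.31 to 7.29 and CHRM4 at -3.14 to 7.11, both reversed without whole cells replicate 2, where all 5 genes at 0 in whole cells have no bounded fold. CHRM4 did not pass the low-count filter when either nuclei library was left out, so it had no value there. Without the library term (no replicate block) 1 was called against interneurons in place of 2 and 1 between D1-like and D2-like nuclei in place of 2. OPRK1 was then at 0.81 against interneurons (adjusted p = 0.0690). CNR1 against interneurons reversed to -0.14 with doublets kept, to -0.23 at the other cluster resolution and to -0.40 with the named interneuron subclasses, none of them called. All genes called between nuclei and whole cells numbered 8231, but 13035 on library size alone, 5471 with the replicate block, 4864 without whole cells replicate 2 and 5438 without nuclei replicate 2. Those called between spiny neurons and interneurons numbered 3072, but 1797 without the library term, 4627 with doublets kept, 4655 with the named interneuron subclasses, 4972 without the top doublet scores and 5939 at the other resolution. Genes called between D1-like and D2-like nuclei numbered 446, but 28 without the library term, 191 with DESeq2, 204 with at least 500 genes, 736 on library size alone, 747 with no filter, 880 with doublets kept and 1172 without the top 8% of doublet scores. Library size alone moved the share higher in D1-like nuclei from 60.5% to 85.1%, that in spiny neurons from 52.0% to 32.4% against glia and from 50.6% to 30.2% against interneurons. OPRD1 kept its call between these types in all 8 alternatives (-4.00 to -2.71), as did CNR1 in eccentric spiny-like nuclei. Among called values that kept their call but moved were OPRM1 between nuclei and whole cells (3.25 with barcodes of at least 200 genes, 15.87 without whole cells replicate 2), OPRK1 in PTHLH and PVALB interneuron-like nuclei against D1-like and D2-like nuclei (-6.61 to -2.21), OPRD1 in eccentric spiny-like against D1-like nuclei (1.65 to 2.87), OPRM1 in PTHLH and PVALB interneuron-like nuclei (-2.76 to -1.79), in microglia against other glia (4.72 to 5.98) and in spiny neurons against astrocytes (2.58 to 4.93). The other cluster resolution gave no D1-like or D2-like subclass, so no value, and leaving out a nuclei library left 1 sample per class, so no test. CHRM1 and CHRM4 had the fewest UMIs of the receptor genes, with 17 to 43 per nuclei library.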
